A study of Mus musculus with 36 samples.

Results

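The genes described here are 10 of the 55487 genes in the count table: the Wnt ligands Wnt4, Wnt5a and Wnt5b, the secreted antagonists Sfrp1, Sfrp2, Dkk1, Dkk2, Dkk3 and Wif1, and Axin2, a target of the pathway. They were named as members of the pathway, with earlier results of these data known, and all 10 passed the filter on low counts. The data are RNA-seq counts from primary mouse embryonic fibroblasts (MEFs), cells grown out of mid-gestation embryos after removal of the head and organs, treated for 5 h with 1 µM dexamethasone (Dex), a synthetic ligand of the glucocorticoid receptor (GR), or with vehicle. The study performed the experiment in 2 parts, called runs here. Run 1 held GRwt/wt, GRD/D, GRD+L/D+L and GRko/ko cells, and run 2 held a further set of GRwt/wt cells and GRL/L cells. GRD/D cells carry an alanine-to-threonine substitution where 2 DNA-binding domains of GR meet, GRL/L cells an isoleucine-to-alanine substitution in the ligand-binding domain, GRD+L/D+L cells both, and GRko/ko cells lack a working receptor. All alleles were homozygous and germline, so every cell of a culture carried them. Each of the 12 groups had 3 libraries, and the series design gives 3 cultures per genotype, each from a different mouse. The labels give the strain as FVB/NJ for all libraries, whereas the study's methods describe the knockout line as 129, Sv.

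Wnt ligands are secreted lipid-modified proteins that bind Frizzled receptors together with Lrp5 or Lrp6 to stabilise beta-catenin, or with Ror1, Ror2 or Ryk to signal without it. Sfrp proteins and Wif1 bind the ligands themselves, Dkk1 and Dkk2 bind the Lrp co-receptors, and Dkk3 is a divergent relative that does not act as a typical Lrp antagonist. Axin2 is induced by beta-catenin and feeds back on it by promoting its breakdown, and mesenchymal cells use this set of genes in patterning limbs, skeleton and skin.

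Promoter stretches are shown for 3 of these genes, picked for the expression results below, none of which rests on the stretches. Wnt4 fell with Dex in every genotype that has a receptor, and the Dex response of Dkk2 differed between genotypes. Axin2 is the readout of beta-catenin. The stretches lie on the plus strand, at chr4:137277385-137277488, chr3:132085042-132085291 and chr11:108920099-108920348 (RefSeq, GRCm38.p6), and end where the annotated gene begins. Capitals mark the half-site of the glucocorticoid response element (GRE), AGAACA or its reverse complement.
Wnt4: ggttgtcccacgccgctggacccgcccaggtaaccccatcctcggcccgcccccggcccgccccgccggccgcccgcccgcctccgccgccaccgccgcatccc
Dkk2: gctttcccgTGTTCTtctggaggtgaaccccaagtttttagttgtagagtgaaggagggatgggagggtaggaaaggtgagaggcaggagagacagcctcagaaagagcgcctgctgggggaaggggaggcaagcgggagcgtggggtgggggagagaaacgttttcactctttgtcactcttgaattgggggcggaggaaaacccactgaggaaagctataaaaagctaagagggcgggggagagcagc
Axin2: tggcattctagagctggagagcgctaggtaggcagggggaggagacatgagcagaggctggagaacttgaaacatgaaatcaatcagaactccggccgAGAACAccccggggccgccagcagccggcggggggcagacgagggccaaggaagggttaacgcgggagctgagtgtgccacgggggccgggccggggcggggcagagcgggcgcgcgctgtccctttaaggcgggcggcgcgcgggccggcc
RefSeq promoter windows, from 250 bases before to 50 after a start, were at hand for 7 of the 10 genes (9 windows, none for Wnt5a, Sfrp1 or Dkk3). None of them held the full GRE searched for, AGAACA and TGTTCT with 3 bases of any kind between, which 0.00913% of all 32851 windows held, or the inverted repeat of negative elements, CTCC and GGAGA with 1 base between, held by 0.737%. The half-site stood 241 bases before the start of Dkk2, 152 before that of Axin2 and 234 before 1 of the 3 starts of Wnt5b, and 19.0% of all windows held it. CTTTGA, the core of TCF/LEF sites, stood 174 and 117 bases before the RefSeq start of Dkk1 and 71 before another start of Wnt5b. It was held by 16.0% of all windows. The GENCODE gene of Dkk1 begins before that RefSeq start, so the match at 117 lies inside the gene. The match at 174 ends on the first base of the gene. Both strands were searched, and half-sites inside a full GRE would have counted as half-sites too. These matches describe letters in the windows and no binding was measured.

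Libraries held 15280166 to 28662608 counts, and levels are given as CPM, counts relative to the TMM-scaled library size. Nr3c1, which encodes GR, was at 15.9 to 18.0 CPM in GRko/ko vehicle libraries against 67.2 to 74.3 CPM in GRwt/wt of run 1, and Fkbp5, a direct GR target, was called higher after Dex in all 5 groups that have a receptor and not in GRko/ko. All 10 fibroblast markers were detected in every library. The summed level of 10 macrophage markers was 2940 to 3430 CPM in GRko/ko, 733 to 894 in GRD/D, 204 to 360 in GRwt/wt of run 1, 32.2 to 41.7 in GRD+L/D+L, 444 to 512 in GRwt/wt of run 2 and 723 to 1042 in GRL/L. The 10 cartilage markers summed to 181 to 579 CPM in GRko/ko against 18.7 to 21.1 in GRwt/wt of run 1. Their sum was 18.4 to 31.0 CPM in GRD/D and 21.6 to 31.0 in GRD+L/D+L. In run 2 it was 67.7 to 82.9 CPM in GRwt/wt and 102 to 146 in GRL/L. Cnmd was at 0 in every GRwt/wt, GRD/D and GRD+L/D+L library of run 1, and in every GRko/ko library after Dex. Xist exceeded the summed Y-linked genes in every GRwt/wt library of run 1 and every GRD/D library, and the reverse held in every library of the other 4 genotype and run sets. The 3 cultures of each set thus showed 1 pattern, and their independence, on which n = 3 and every SE and p below rest, was not tested. The part of cell makeup and embryo sex in the genotype differences below was not tested. If the knockout line has the strain that the study's methods give, strain and genotype cannot be told apart in GRko/ko. In bulk RNA, fewer cells of a type and less RNA per cell cannot be told apart, and in the comparison of the 2 wild-type sets the run and the set of cultures cannot be told apart.

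**Figure D1:**
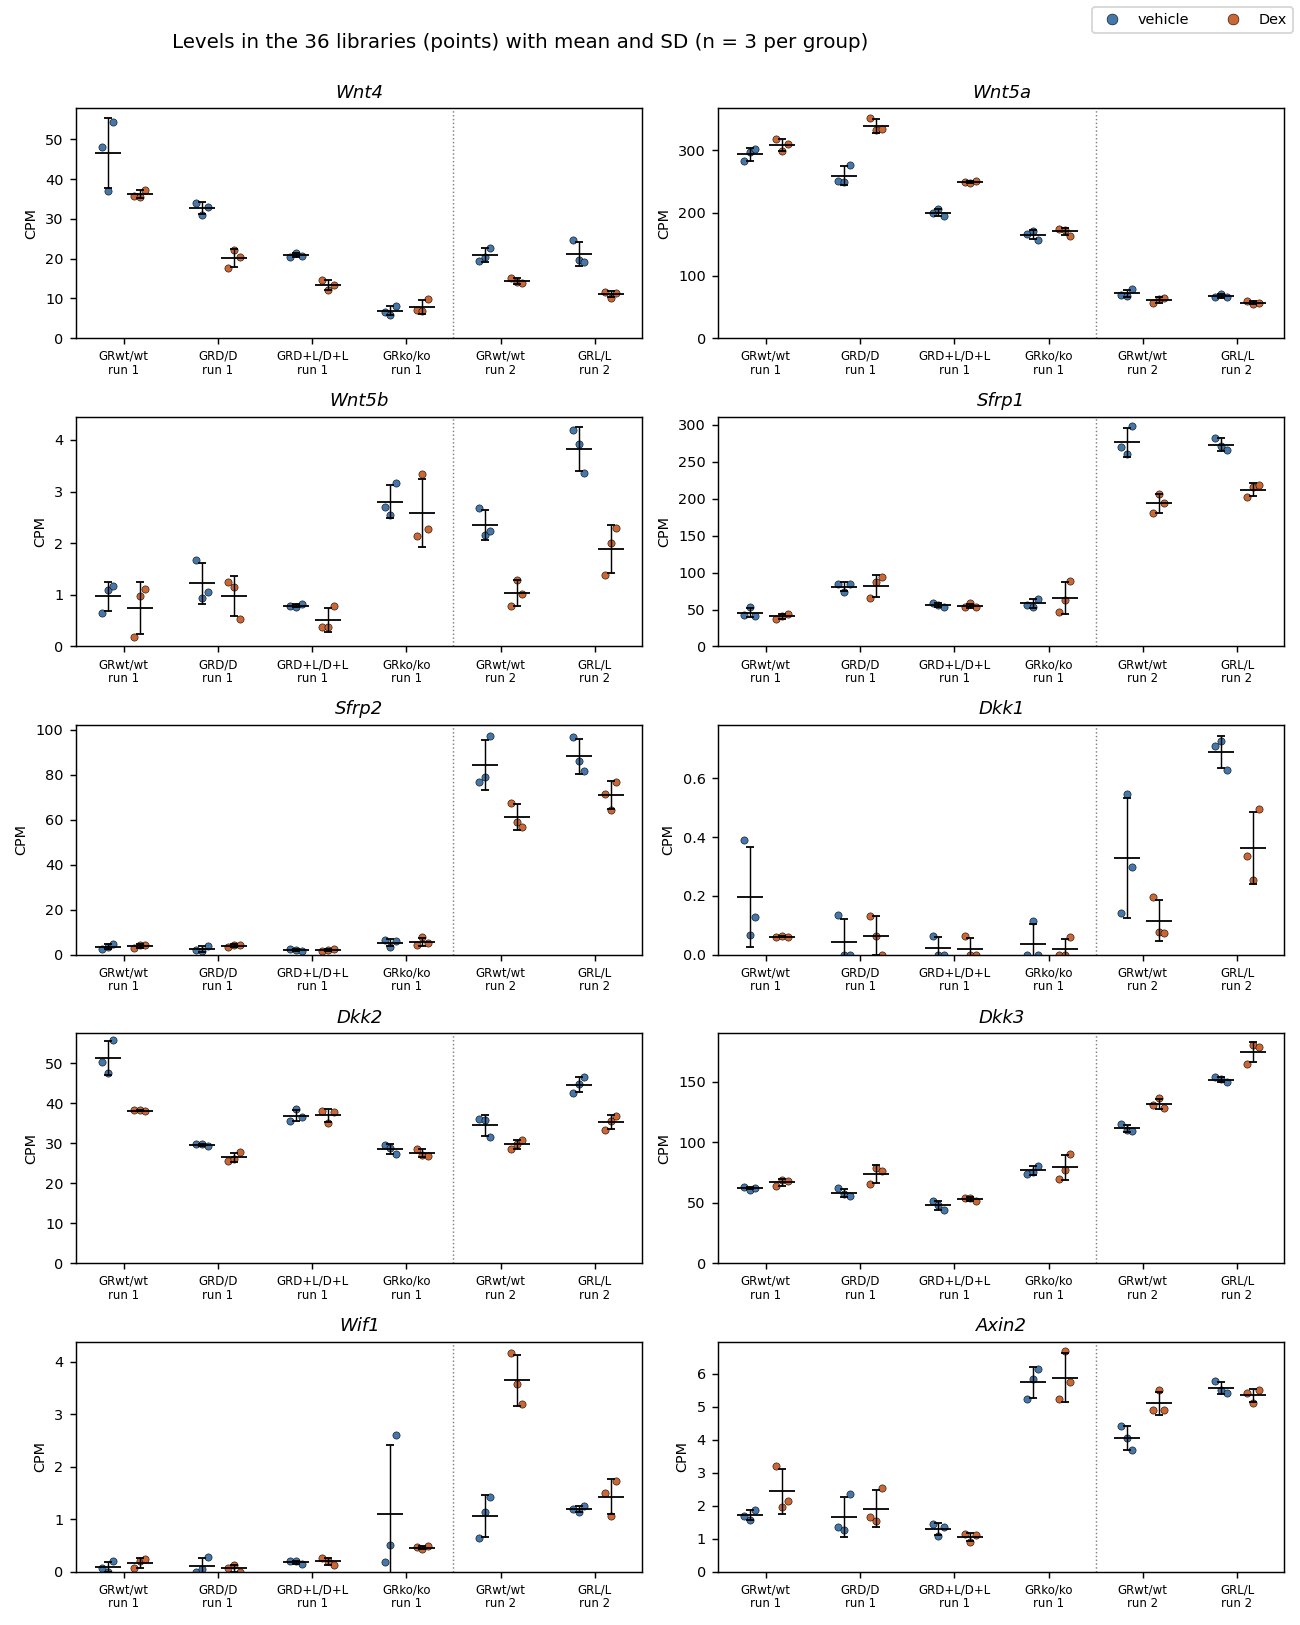
Levels of the 10 genes in CPM (y axis, from 0) in each of the 36 libraries, by genotype and run (x axis); points are libraries, blue for vehicle and orange for Dex, horizontal bars are means and whiskers are SD (n = 3), with whiskers below 0 not drawn. Wnt4 was highest in GRwt/wt and lowest in GRko/ko within run 1, and Sfrp1 and Sfrp2 stood far higher in both genotypes of run 2 than in any of run 1.

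The 10 genes differed widely in level, compared here as CPM per kb of exon. In vehicle-treated GRwt/wt cells of run 1, Wnt5a had the highest level (37.6 ± 1.29 per kb, SD, n = 3), followed by Dkk3 (18.5 ± 0.330), Dkk2 (13.9 ± 1.16), Wnt4 (11.1, range of the libraries 8.84 to 13.0) and Sfrp1 (10.5 ± 1.42). Libraries of Wnt4 overlapped those of Dkk2 and of Sfrp1. Sfrp2 (1.71 ± 0.458), Wnt5b (0.366 ± 0.106) and Axin2 (0.311 ± 0.0281) were low, the latter pair within their spread, and Dkk1 and Wif1 lay near the detection limit with at most 6 and 3 counts per library. In run 2 the order changed: Sfrp1 (63.2 ± 4.45 per kb) led, followed by Sfrp2 (39.2 ± 5.24) and Dkk3 (33.2 ± 0.934), and Wnt5a was at 9.13 ± 0.709.

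**Figure D2:**
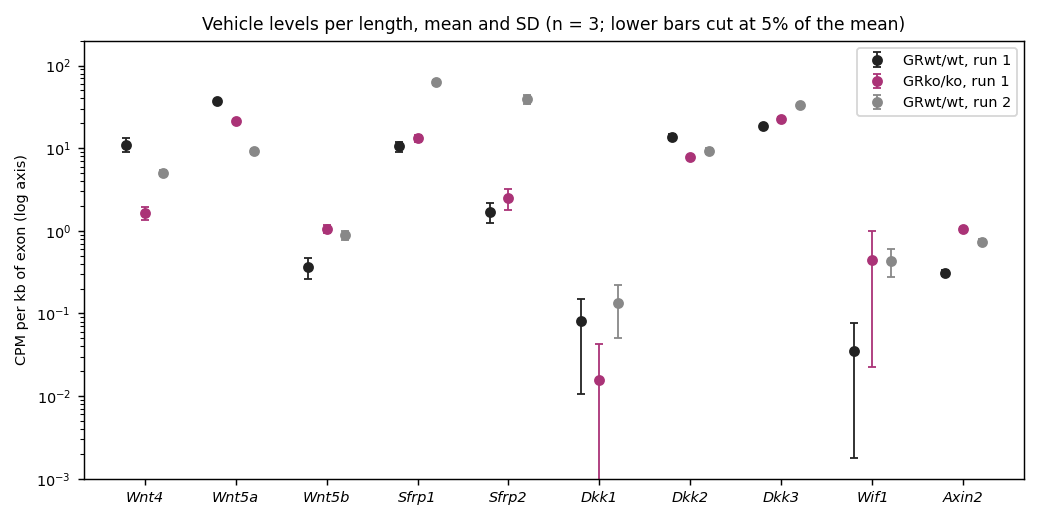
Vehicle levels of the 10 genes (x axis) in CPM per kb of exon on a log axis (y axis); points are means and whiskers SD (n = 3) for GRwt/wt of both runs and GRko/ko, and a whisker that would pass 0 ends at 5% of the mean. Wnt5a led in run 1 at 37.6, and Sfrp1 led in run 2 at 63.2.

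Wild-type cells of the 2 runs differed in vehicle. Of the 10 genes, 9 passed the test (6 higher and 3 lower in run 2), beside 72.4% (40.2% higher, 32.2% lower) of all 15489 genes tested. A count of 9 in 10 is read against that background, in which most genes were called. Sfrp2 was 22.9-fold higher in run 2 (log2 4.52 ± 0.17, SE), Sfrp1 6.02-fold and Dkk3 1.79-fold higher, whereas Wnt5a was 4.11-fold lower (-2.04 ± 0.05), Wnt4 2.24-fold and Dkk2 1.49-fold lower. For this reason each mutant is compared only with the wild type of its own run. The exception is an alternative fit with run as a term, in which the wild types of both runs share 1 Dex change.

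Wnt4, a ligand that drives epithelial differentiation in the kidney, fell after Dex in all 5 groups with a receptor. In GRwt/wt of run 1 it was at 48.1, 37.1 and 54.4 CPM in vehicle and 35.8, 35.6 and 37.3 CPM after Dex, a difference of -0.36 ± 0.10 (log2, SE; edgeR adjusted p = 0.0143). The groups overlapped there by the lowest vehicle library, and leaving out Dex library 1, Dex library 2, vehicle library 1 or vehicle library 3 ended the call (adjusted p 0.0512 to 0.189). In GRD/D it was at 34.1, 31.1 and 33.0 CPM in vehicle and 17.6, 22.2 and 20.4 after Dex (-0.70 ± 0.12, adjusted p = 3.05e-05), with no overlap. In GRD+L/D+L, Wnt4 went from 20.5, 21.4 and 20.7 CPM to 14.6, 12.0 and 13.4 (-0.64 ± 0.13, adjusted p = 0.000955), again without overlap. GRwt/wt of run 2 held 19.3, 20.5 and 22.7 CPM in vehicle and 15.2, 14.1 and 13.9 after Dex (-0.53 ± 0.11, adjusted p = 0.00025). GRL/L held 24.6, 19.6 and 19.2 CPM in vehicle and 11.7, 10.2 and 11.2 after Dex (-0.93 ± 0.11, adjusted p = 5.06e-08), and every Dex library lay below every vehicle library in both genotypes of run 2. In GRko/ko the 3 vehicle libraries (6.65, 5.84 and 8.15 CPM) and the 3 Dex libraries (7.02, 6.74 and 9.94 CPM) overlapped, with a difference of 0.21 ± 0.17 (adjusted p = 0.939). In the test of the response itself no mutant passed against its wild type: the GRko/ko minus GRwt/wt difference was 0.57 (95% interval 0.17 to 0.97, adjusted p = 0.0668), that of GRD/D -0.34 (-0.65 to -0.02, adjusted p = 0.368), that of GRD+L/D+L -0.28 (-0.62 to 0.06, adjusted p = 0.55) and that of GRL/L -0.40 (-0.73 to -0.07, adjusted p = 0.265). The GRko/ko difference passed in 4 of 7 alternatives: DESeq2 (adjusted p = 0.0347), no filter on low counts (0.00258), run as a term (0.012) and a replicate block (0.0344), with adjusted p up to 0.1 in the others. Run as a term sets GRko/ko against the wild-type response shared by both runs. The GRL/L difference passed in 1 of 7, without the filter (adjusted p = 0.048, up to 0.268 in the others). The fit without the filter was more liberal: it called 110 genes after Dex in GRko/ko, where the main fit called 0.

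The vehicle level of Wnt4 in run 1 followed one order, GRwt/wt, GRD/D, GRD+L/D+L, GRko/ko, in which every step passed the test. Against GRwt/wt it was 1.43-fold lower in GRD/D (log2 -0.51 ± 0.11, adjusted p = 0.000805), 2.23-fold lower in GRD+L/D+L (-1.16 ± 0.11, adjusted p = 2.2e-10) and 6.8-fold lower in GRko/ko (-2.77 ± 0.13, adjusted p = 1.14e-19). GRD+L/D+L was below GRD/D (-0.65 ± 0.11, log2) and GRko/ko below GRD+L/D+L (-1.61 ± 0.14). The step to GRko/ko also holds the possible difference in strain named above, whose part was not tested. Between these pairs 37.5% and 51.2% of all genes were called, and 48.5% between GRko/ko and GRD/D. In run 2 GRL/L and GRwt/wt were not separated (0.02, 95% interval -0.20 to 0.23). Of the 10 genes, 4 passed in vehicle between GRD/D and GRwt/wt (1 higher, 3 lower), beside 9.55% (5.66% higher, 3.89% lower) of all genes. For GRD+L/D+L it was 5, all lower, beside 29.9% (13.9% higher, 15.9% lower). For GRko/ko it was 8 (5 higher, 3 lower), beside 45.7% (24.4% higher, 21.3% lower), and for GRL/L 4, all higher, beside 11.3% (6.88% higher, 4.47% lower).

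Wnt5a, the ligand of the beta-catenin-independent branch, changed with Dex in opposite directions in different groups. In GRD/D it went from 252, 250 and 277 CPM to 352, 332 and 334 (0.39 ± 0.05, adjusted p = 8.35e-07), and in GRD+L/D+L from 200.3, 207 and 195 CPM to 249.7, 248 and 251 (0.31 ± 0.05, adjusted p = 6.22e-05), without overlap in either. In GRwt/wt of run 1 the values were 282, 298 and 302 CPM in vehicle and 318, 299 and 310 after Dex (0.07 ± 0.05, adjusted p = 0.435), and in GRko/ko 167, 172 and 157 against 175, 173 and 164 (0.05 ± 0.05). In run 2 it fell, from 69.0, 67.6 and 77.8 CPM to 56.2, 63.0 and 63.5 in GRwt/wt (-0.23 ± 0.06, adjusted p = 0.00124) and from 65.2, 71.0 and 65.4 to 59.6, 54.7 and 55.5 in GRL/L (-0.25 ± 0.06, adjusted p = 0.000885). The call in GRwt/wt of run 2 was lost when the wild types were fitted together with run as a term (-0.07, adjusted p = 0.249) and when only the libraries compared were fitted (adjusted p = 0.0503). The GRD/D response exceeded that of GRwt/wt by 0.31 ± 0.07 (adjusted p = 0.00691), among 3.29% of all genes called there. For GRD+L/D+L the difference was 0.24 (95% interval 0.09 to 0.39, adjusted p = 0.0647), and 3.23% of all genes were called. It passed in 2 of 7 alternatives, with run as a term (0.38, adjusted p = 0.00101) and with only the libraries compared (0.24, adjusted p = 0.000989), and its adjusted p reached 0.1 in the others. With run as a term the wild-type response was that of both runs together (-0.07), so the 0.38 is not a difference within run 1. The response of GRwt/wt in run 2 lay below that in run 1 by 0.30 ± 0.08 (adjusted p = 0.0084; 7.09% of all genes called), a call that ended without vehicle library 6 of run 2 (adjusted p = 0.0549). In vehicle, Wnt5a had the same order in run 1 as Wnt4: it was 1.47-fold lower in GRD+L/D+L and 1.78-fold lower in GRko/ko than in GRwt/wt (-0.55 ± 0.05 and -0.83 ± 0.05), and 1.13-fold lower in GRD/D (-0.18 ± 0.05, adjusted p = 0.0216). The GRD/D call ended without vehicle library 1 or 2 of GRD/D or vehicle library 2 or 3 of GRwt/wt (adjusted p up to 0.109), and with only the libraries compared (adjusted p = 0.121). Each pair of neighbours in that order differed by test.

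Wnt5b, a close relative of Wnt5a, was low and fell with Dex in run 2. It went from 2.68, 2.15 and 2.23 CPM to 0.792, 1.29 and 1.02 in GRwt/wt (2.27-fold lower, log2 -1.18 ± 0.26, adjusted p = 0.000534) and from 4.19, 3.92 and 3.37 to 1.38, 2.00 and 2.30 in GRL/L (2.02-fold lower, -1.01 ± 0.22, adjusted p = 0.000641). In run 1 its estimates were also below 0 in all 4 genotypes (-0.62 to -0.12) on 3 to 55 counts per library, with intervals that include both 0 and the run 2 values in GRwt/wt and GRD+L/D+L. In vehicle it was 2.88-fold higher in GRko/ko than in GRwt/wt (2.71, 2.55 and 3.16 against 0.649, 1.10 and 1.17 CPM; 1.52 ± 0.31, adjusted p = 0.000114). It was 1.62-fold higher in GRL/L than in GRwt/wt of run 2 (0.70 ± 0.21, adjusted p = 0.0246), which was lost without vehicle library 1 or 2 of GRL/L or 5 or 6 of GRwt/wt (adjusted p up to 0.115).

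**Figure D3:**
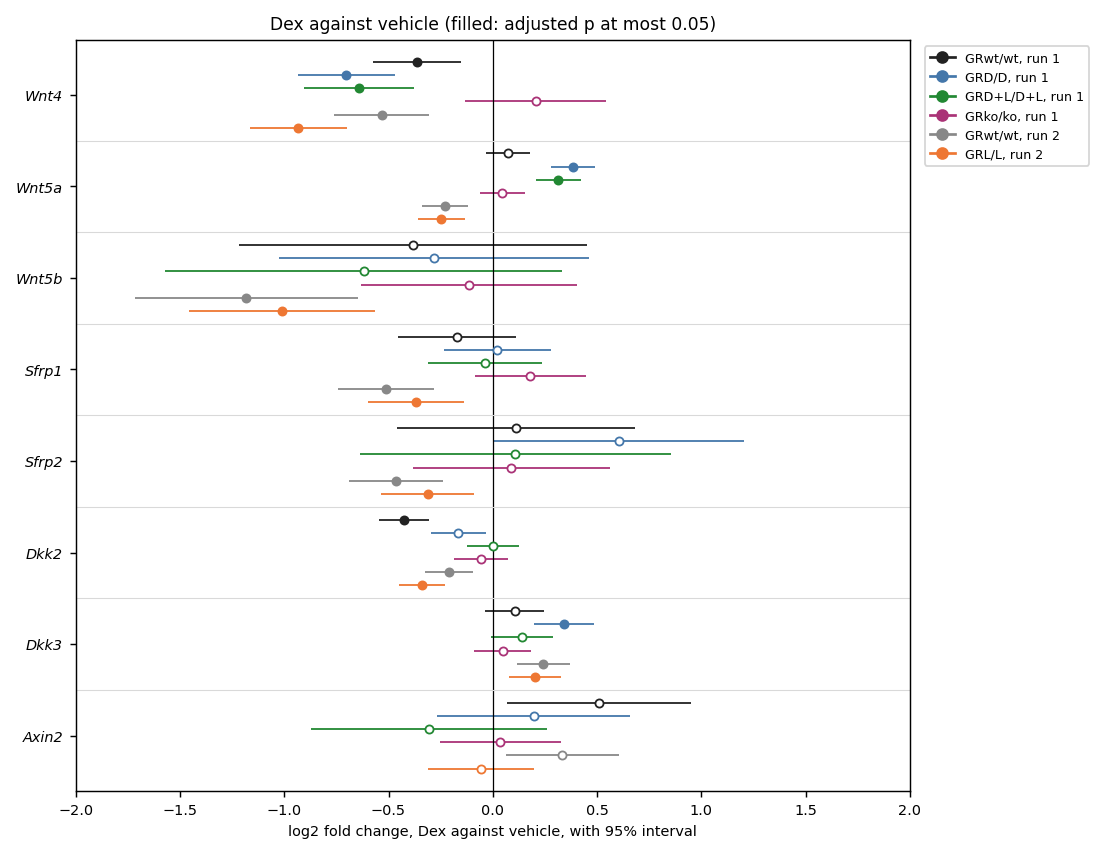
Dex changes of 8 of the 10 genes (rows) as log2 fold change against vehicle (x axis) with 95% intervals, 1 colour per genotype and run; filled points have an adjusted p of at most 0.05, and Dkk1 and Wif1 are left out for their low counts. Wnt4 lay below 0 in all 5 groups with a receptor, and Wnt5a was above 0 in GRD/D and GRD+L/D+L and below 0 in run 2.

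Dkk2, which binds Lrp5 and Lrp6, fell with Dex in both wild types. In GRwt/wt of run 1 it was at 50.5, 47.5 and 56.0 CPM in vehicle and 38.4, 38.3 and 38.0 after Dex (1.34-fold lower, -0.43 ± 0.06, adjusted p = 7.59e-07). In GRwt/wt of run 2 it went from 35.98, 35.9 and 31.6 CPM to 28.6, 30.0 and 30.9 (-0.21 ± 0.06, adjusted p = 0.00399), and in GRL/L from 42.7, 44.8 and 46.6 to 33.4, 35.5 and 37.0 (-0.34 ± 0.05, adjusted p = 9.13e-06). Vehicle and Dex libraries did not overlap in any of these 3 groups, but the call in GRwt/wt of run 2 was lost with only the libraries compared (adjusted p = 0.0611). In GRD/D the values were 29.9, 29.7 and 29.4 CPM in vehicle and 25.7, 26.0 and 27.7 after Dex, which do not overlap either, but the difference did not pass (-0.17 ± 0.06, adjusted p = 0.0927). In GRD+L/D+L they were 35.6, 38.6 and 36.7 against 38.0, 35.2 and 37.9 CPM (0.00, 95% interval -0.12 to 0.13), and in GRko/ko 29.7, 28.8 and 27.4 against 28.6, 27.1 and 26.8 CPM (-0.06, -0.19 to 0.07). The response differed from that of GRwt/wt by 0.43 ± 0.09 in GRD+L/D+L (adjusted p = 0.00112) and by 0.37 ± 0.09 in GRko/ko (adjusted p = 0.00383; 8.48% of all genes called), and by 0.26 ± 0.09 in GRD/D, which did not pass (adjusted p = 0.115). No difference of GRL/L from its wild type passed for any of the 10 genes, beside 1.85% of all genes.

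The vehicle level of Dkk2 in run 1 ran from GRwt/wt through GRD+L/D+L to GRD/D and GRko/ko. Against GRwt/wt it was lower by 0.47 ± 0.06 in GRD+L/D+L, 0.79 ± 0.06 in GRD/D and 0.84 ± 0.06 in GRko/ko on the log2 scale (adjusted p = 7.41e-08, 1.22e-11 and 2.14e-14). GRko/ko and GRD/D were not separated (-0.05, 95% interval -0.18 to 0.08), whereas GRD+L/D+L was above both. In run 2 it was 1.30-fold higher in GRL/L than in GRwt/wt (0.37 ± 0.05, adjusted p = 6.05e-06). After Dex, GRwt/wt of run 1 (38.0 to 38.4 CPM) lay within the range of GRD+L/D+L vehicle libraries (35.6 to 38.6 CPM). It lay above the vehicle libraries of GRD/D (29.4 to 29.9 CPM) and GRko/ko (27.4 to 29.7 CPM). These comparisons across treatments were not tested.

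Sfrp1 and Sfrp2, which bind Wnt ligands outside the cell, fell with Dex in run 2. Sfrp1 went from 271, 261 and 298 CPM to 181, 207 and 194 in GRwt/wt (1.43-fold lower, -0.51 ± 0.11, adjusted p = 0.000524) and from 283, 271 and 267 to 202, 216 and 218 in GRL/L (-0.37 ± 0.11, adjusted p = 0.0183). Sfrp2 went from 76.6, 79.3 and 97.4 CPM to 67.7, 59.0 and 56.8 in GRwt/wt (-0.47 ± 0.11, adjusted p = 0.00114) and from 96.8, 86.1 and 81.8 to 71.3, 64.5 and 77.0 in GRL/L (-0.31 ± 0.11, adjusted p = 0.0399). No Dex library reached the lowest vehicle library in these 4 comparisons. Under DESeq2 the Sfrp2 calls of both genotypes were lost (adjusted p = 0.106 and 0.404) as was that of Sfrp1 in GRL/L (adjusted p = 0.0688), and leaving out Dex library 1 or vehicle library 1 of GRL/L ended both GRL/L calls. For Sfrp2 in GRL/L, leaving out Dex library 2 or vehicle library 2 ended the call as well (adjusted p up to 0.205). In run 1 neither gene passed after Dex in any genotype: Sfrp1 estimates ran from -0.17 to 0.18 and Sfrp2 estimates from 0.09 to 0.60. The highest, Sfrp2 in GRD/D, ran from 0.31 to 1.11 when leaving out a library. It passed without vehicle library 3 (1.11, adjusted p = 0.0232) and in the more liberal fit without the filter (adjusted p = 0.00861). In vehicle Sfrp1 was 1.76-fold higher in GRD/D than in GRwt/wt (84.7, 74.4 and 84.3 against 43.3, 53.1 and 41.6 CPM; 0.82 ± 0.13, adjusted p = 3.13e-05). It was higher by 0.34 ± 0.14 in GRko/ko (adjusted p = 0.0387), a call that ended under DESeq2 (adjusted p = 0.0716), with run as a term (adjusted p = 0.132) and without vehicle library 1 or 3 of either genotype (adjusted p up to 0.186). Sfrp2 was lower by 0.85 ± 0.33 in GRD+L/D+L (25 to 37 against 43 to 73 counts; adjusted p = 0.0491), which held in 1 of the 6 fits that left out a library, that without vehicle library 1 of GRwt/wt.

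Dkk3 rose with Dex in GRD/D, from 61.8, 57.1 and 55.3 CPM to 65.2, 78.9 and 76.4 (1.27-fold, 0.34 ± 0.07, adjusted p = 0.000679). It also rose in GRwt/wt of run 2, from 115, 110.0 and 109 CPM to 131, 136 and 128 (1.18-fold, 0.24 ± 0.06, adjusted p = 0.00268), and in GRL/L from 154, 152 and 149 to 165, 180.2 and 179 (1.15-fold, 0.20 ± 0.06, adjusted p = 0.0164). No groups overlapped in these 3, but the GRL/L call ended without Dex library 2, Dex library 3 or vehicle library 3 (adjusted p up to 0.0817). GRwt/wt of run 1 held 62.8, 60.8 and 62.5 CPM against 63.8, 68.8 and 67.7 (0.10 ± 0.07, adjusted p = 0.395), and the GRD/D response did not differ from it by test (0.24, 95% interval 0.04 to 0.44, adjusted p = 0.286). The vehicle level in run 1 was highest in GRko/ko (1.24-fold over GRwt/wt, adjusted p = 0.000411) and lowest in GRD+L/D+L (1.29-fold below, adjusted p = 0.00014), with GRwt/wt and GRD/D not separated (-0.10, 95% interval -0.24 to 0.05). In run 2 GRL/L was 1.36-fold above GRwt/wt (0.45 ± 0.06, adjusted p = 2.7e-06).

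Wif1, an extracellular ligand trap, rose with Dex in GRwt/wt of run 2, from 0.635, 1.13 and 1.41 CPM (18, 31 and 38 counts) to 4.16, 3.57 and 3.20 CPM (105, 94 and 85 counts), 3.44-fold (1.78 ± 0.33, adjusted p = 5.06e-05). This was the largest Dex change of any of the 10 genes that passed. In GRL/L it was at 1.18, 1.14 and 1.25 CPM against 1.49, 1.06 and 1.73 (0.27 ± 0.36, adjusted p = 0.684). The difference between the 2 responses was -1.51 (95% interval -2.51 to -0.50) and did not pass (adjusted p = 0.127). It did pass in the fit on the run 2 libraries alone (adjusted p = 0.0338) and in the more liberal fit without the filter on low counts (adjusted p = 0.00177). In run 1 Wif1 had at most 5 counts in every library outside GRko/ko. GRko/ko vehicle libraries held 3, 9 and 41 counts against 1, 0 and 3 in GRwt/wt, and the call for this difference (adjusted p = 0.000532) ended without the library of 41 counts (adjusted p = 0.0664), as did those against GRD/D and GRD+L/D+L (0.109 and 0.291). That library is vehicle library 3, and the cartilage marker sum ranged from 181 to 579 CPM among the same 3 libraries; its part in the result was not tested.

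Dkk1, an Lrp antagonist, had at most 23 counts in any library and passed no Dex or vehicle test with all libraries fitted by group. In GRL/L it held 21, 23 and 19 counts in vehicle and 9, 6 and 14 after Dex (-0.89 ± 0.40, adjusted p = 0.12). GRwt/wt of run 2 held 4, 15 and 8 against 5, 2 and 2 counts (-1.45 ± 0.59, adjusted p = 0.0581). That difference passed without Dex library 4 (-2.02, adjusted p = 0.0389) and without vehicle library 4 (-1.82, adjusted p = 0.0205). With run as a term, the change over the wild types of both runs passed (-1.49, adjusted p = 0.0187). Over the 5 alternatives other than leaving out a library the adjusted p ran from 0.0187 to 0.112. In vehicle, some Dkk1 differences passed when 1 library was left out. GRD+L/D+L was lower than GRwt/wt without its vehicle library 1 or vehicle library 2 of GRwt/wt (adjusted p = 0.0461 and 0.0433). GRko/ko was lower without its vehicle library 2 (0.0219), and GRL/L higher without vehicle library 5 of GRwt/wt (0.0285). The vehicle counts in run 1 were 1, 0 and 0 in GRD+L/D+L, 0, 2 and 0 in GRko/ko, and 6, 1 and 2 in GRwt/wt. So few counts cannot settle a difference in run 1.

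Axin2, which reports beta-catenin activity, did not pass after Dex in any of the 6 groups. In GRwt/wt of run 1 it was at 1.69, 1.58 and 1.88 CPM in vehicle and 3.19, 1.94 and 2.15 after Dex (0.51 ± 0.22, adjusted p = 0.128), and in run 2 at 4.41, 4.05 and 3.68 against 4.91, 5.51 and 4.89 (0.33 ± 0.13, adjusted p = 0.0551). Vehicle and Dex libraries did not overlap in either wild type, and in the fit of both wild types together with run as a term the change passed (0.38, adjusted p = 0.00865). In run 2 it also passed with at least 10 counts asked of every library (adjusted p = 0.0444), and over its 7 alternatives the adjusted p ran from 0.00865 to 0.102. In GRL/L it was at 5.78, 5.50 and 5.41 CPM against 5.40, 5.11 and 5.51 (-0.06, 95% interval -0.31 to 0.20). In vehicle Axin2 was 3.33-fold higher in GRko/ko than in GRwt/wt (5.23, 5.84 and 6.13 CPM; 1.74 ± 0.18, adjusted p = 5.02e-10), whereas GRD/D (-0.05, 95% interval -0.52 to 0.43) and GRD+L/D+L (-0.41, -0.92 to 0.11) were not separated from it. GRL/L was 1.37-fold above GRwt/wt of run 2 (0.46 ± 0.13, adjusted p = 0.0162), which was lost without vehicle library 1 of GRL/L or 5 or 6 of GRwt/wt (adjusted p up to 0.0886).

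**Figure D4:**
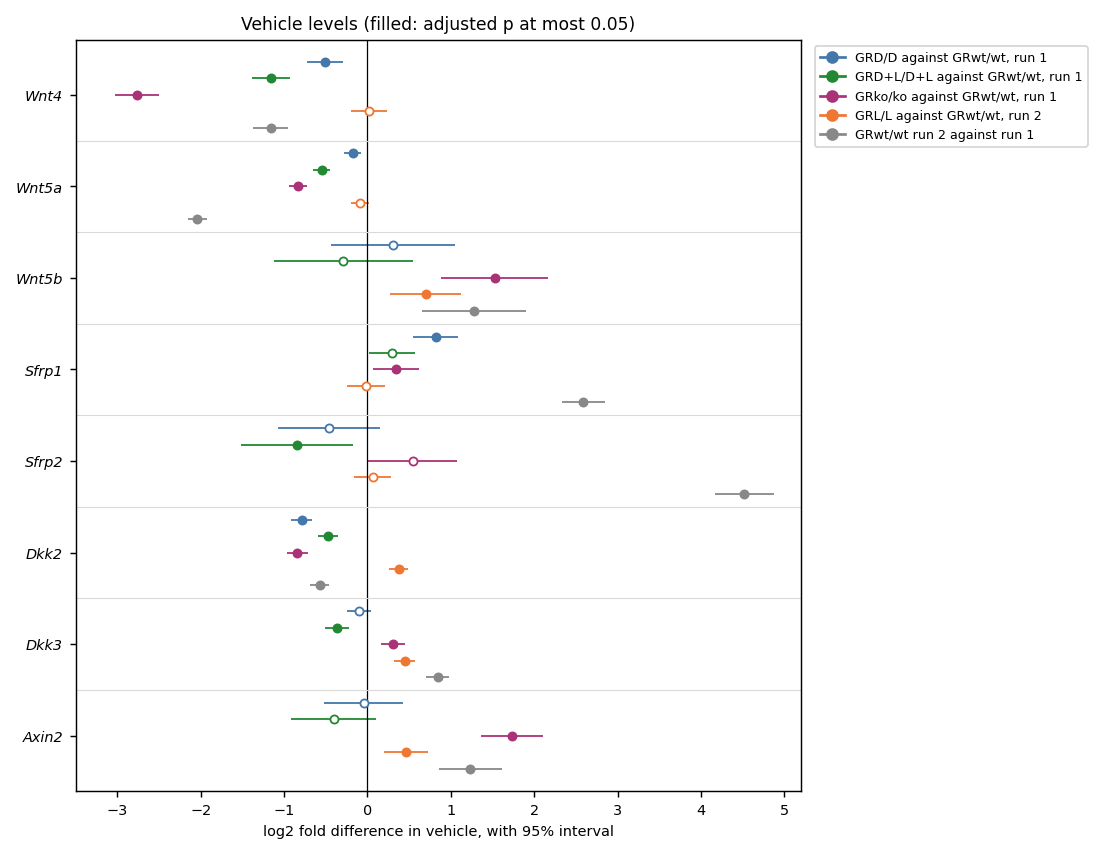
Vehicle levels of 8 of the 10 genes (rows) as log2 fold difference (x axis) with 95% intervals, for each mutant against the wild type of its run and, in grey, for wild type of run 2 against run 1; filled points have an adjusted p of at most 0.05. Wnt4 was lowest in GRko/ko at -2.77, and the largest difference in the plot was that of Sfrp2 between the 2 wild types at 4.52.

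Counted over the 10 genes, Dex called 2 in GRwt/wt of run 1, both lower, beside 13.9% (7.74% higher, 6.2% lower) of all genes. In GRD/D it called 3 (2 higher, 1 lower), beside 11.9% (5.63% higher, 6.24% lower), and in GRD+L/D+L 2 (1 higher, 1 lower), beside 5% (3.08% higher, 1.92% lower). In run 2 it called 8 in GRwt/wt (2 higher, 6 lower), beside 31.6% (14.9% higher, 16.7% lower), and 7 in GRL/L (1 higher, 6 lower), beside 19.1% (8.79% higher, 10.4% lower). In GRko/ko it called none of the 10 and 0% of all genes. That 0 comes from edgeR, and 859 genes there had an unadjusted p below 0.05 (5.55%), and DESeq2 called 1 gene. Median changes of the 10 genes were -0.05 in GRwt/wt of run 1, 0.11 in GRD/D, -0.01 in GRD+L/D+L, -0.35 in GRwt/wt of run 2, -0.33 in GRL/L and 0.04 in GRko/ko, beside medians over all genes between -0.01 and 0.00. The run 2 libraries were deeper (21532686 to 28662608 counts against 15280166 to 19102035), and Sfrp1, Sfrp2 and Wif1 had higher counts there.

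The wider pathway list held 93 genes in 7 roles, of which 80 were tested, 70 of them outside the 10 described. Of those 70, Dex called 20 in GRwt/wt of run 1 (10 higher, 10 lower), 22 in GRD/D (13 higher, 9 lower), 7 in GRD+L/D+L (4 higher, 3 lower), 36 in GRwt/wt of run 2 (17 higher, 19 lower), 23 in GRL/L (8 higher, 15 lower) and none in GRko/ko. In shares these are 28.6%, 31.4%, 10%, 51.4% and 32.9%, above the shares of all genes given above. The median absolute change of the 70 in GRwt/wt was 0.23 in run 1 and 0.35 in run 2, beside 0.13 and 0.16 over all genes, and no test of the list was made.

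By role, the R-spondin receptors were among the largest changes. A gene is given a value only in groups where it was among the up to 3 largest called changes. A group not named for a gene may hold a change too, and Fzd6 and Lgr4 passed in every group with a receptor. Lgr5 fell by 1.11 ± 0.22 on the log2 scale in GRwt/wt of run 1 and by 1.33 ± 0.09 in run 2, and Lgr4 fell by 0.73 ± 0.06 in GRD/D and by 0.56 ± 0.06 in GRD+L/D+L. Among receptors, Ror1, a partner of Wnt5a, rose 2.00 ± 0.13 in GRwt/wt of run 1, Fzd6 fell by 1.00 ± 0.08 there and by 0.72 ± 0.08 in GRD+L/D+L, and Fzd1 rose 0.66 ± 0.08 in GRD/D and 0.49 ± 0.08 in GRD+L/D+L. Other antagonists moved in run 2: Apcdd1, a membrane inhibitor, rose 1.33 ± 0.07 in GRwt/wt and 0.97 ± 0.07 in GRL/L, and Sfrp4 fell by 1.51 ± 0.29 in GRL/L. Lef1, a transcription factor that works with beta-catenin, fell by 0.93 ± 0.17 in GRL/L, and Ccn4, a beta-catenin target, fell by 1.15 ± 0.04 in GRwt/wt of run 2. Of the 7 tested beta-catenin targets, Axin2 included, 4 passed in GRwt/wt of run 1 (3 higher, 1 lower), 57.1% beside 13.9% of all genes, and 5 in run 2 (3 higher, 2 lower), 71.4% beside 31.6%. In GRD/D 4 passed (3 higher, 1 lower), 57.1% beside 11.9%, and in GRL/L 3 (2 higher, 1 lower), 42.9% beside 19.1%. None passed in GRD+L/D+L, beside 5%, or in GRko/ko, beside 0%. The ligand Wnt2 rose 0.62 ± 0.13 in GRD/D.

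In vehicle the same list gave 15 of 70 genes for GRD/D (7 higher, 8 lower), which is 21.4% beside 9.55% of all genes. For GRD+L/D+L it gave 31 (16 higher, 15 lower), 44.3% beside 29.9%, and for GRko/ko 41 (23 higher, 18 lower), 58.6% beside 45.7%. For GRL/L it gave 19 (17 higher, 2 lower), 27.1% beside 11.3%. The largest differences in GRko/ko were Rspo2, an R-spondin, 4.48 ± 0.15 higher on the log2 scale, Frzb, a soluble Frizzled-related antagonist, lower (-2.20 ± 0.19), and the ligand Wnt16, 1.89 ± 0.30 higher. GRD+L/D+L had Sfrp4 2.41 ± 0.31 and Ror1 1.07 ± 0.14 higher and Apcdd1 lower (-1.55 ± 0.08), and GRD/D had Lgr5 (-1.40 ± 0.23), Frzb (-0.97 ± 0.16) and Apcdd1 (-0.51 ± 0.07) lower. In GRL/L, Sfrp4 (1.05 ± 0.26), Nkd1, a feedback inhibitor (0.74 ± 0.11), and Lgr5 (0.55 ± 0.09) were higher than in GRwt/wt of run 2. The macrophage marker sums given above did not overlap those of the wild type of the same run in any mutant. The cartilage sums overlapped only in GRD/D. The part of either, or of strain in GRko/ko, in these vehicle differences was not tested.

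**Figure D5:**
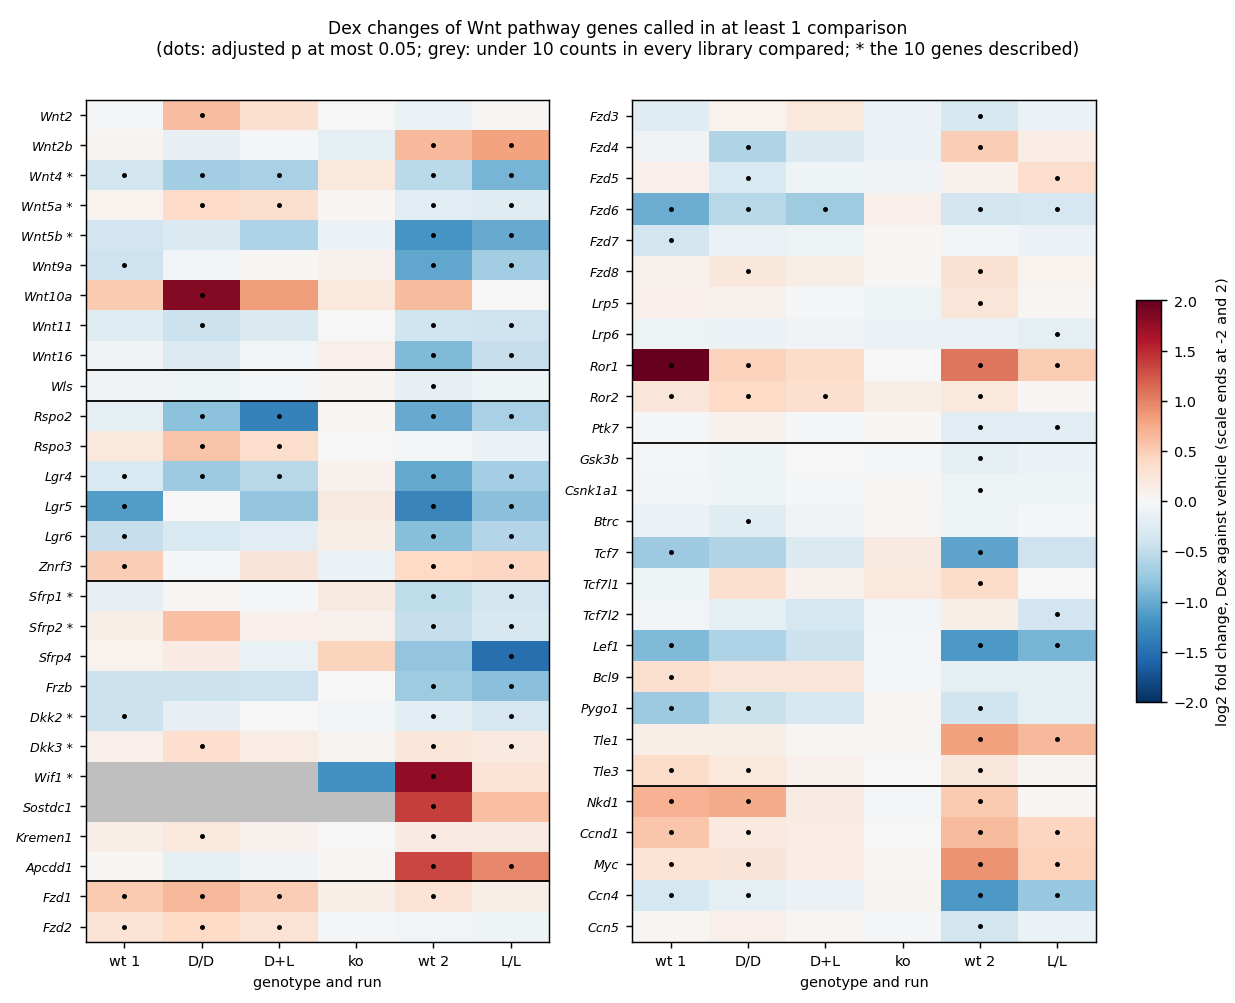
Dex changes (colour, log2 fold change against vehicle) of the 55 pathway genes called in at least 1 group, rows ordered by role with lines between roles, columns by genotype and run; dots mark an adjusted p of at most 0.05, grey cells have under 10 counts in every library compared, and asterisks mark the genes described here. The GRko/ko column holds no dot, and Fzd6, Lgr4 and Wnt4 have dots in all 5 other columns.

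Antisense genes overlap Axin2, Sfrp2 and Wnt5a by 209, 347 and 358 exonic bases, and the strand setting of the counting is not given in the sources used here. They held at most 1, 6 and 39 counts per library. In no library was that more than 3.45% of the count of the gene they overlap. The protein-coding gene Fbxl14 overlaps Wnt5b on the opposite strand but shares 0 exonic bases with it. Fbxl14 held 494 to 869 counts per library, up to 17933% of the Wnt5b count. Whether any of its reads entered the Wnt5b count was not tested. The 10 genes with their positions (mm10, from the GENCODE annotation of that build) are Wnt4 (ENSMUSG00000036856, chr4:137277489-137299726), Wnt5a (ENSMUSG00000021994, chr14:28504750-28527448), Wnt5b (ENSMUSG00000030170, chr6:119432531-119544347), Sfrp1 (ENSMUSG00000031548, chr8:23411502-23449632), Sfrp2 (ENSMUSG00000027996, chr3:83766321-83774316), Dkk1 (ENSMUSG00000024868, chr19:30545863-30549665), Dkk2 (ENSMUSG00000028031, chr3:132085292-132180304), Dkk3 (ENSMUSG00000030772, chr7:112116017-112159057), Wif1 (ENSMUSG00000020218, chr10:121033960-121100650) and Axin2 (ENSMUSG00000000142, chr11:108920349-108950783).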

How the data were processed

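RNA-seq libraries of MEFs were mapped by the authors with HISAT2 2.1.0 to mm10 and counted per gene with featureCounts 2.0.0 (versions from the submitters' processing notes), so the deposited values are raw counts per gene. The annotation and strand setting used for counting are not given in the sources used here. All 36 columns were mapped to samples by title. From these counts, edgeR 4.0.16 fitted quasi-likelihood models to all 36 libraries with a mean for each of the 12 groups, TMM scaling and the filterByExpr filter. P-values were adjusted by Benjamini and Hochberg over 15489 genes, and calls needed an adjusted p of at most 0.05. SEs were taken from the size of each log2 change and its F statistic. The biological coefficient of variation was 0.0513, and replicates of a group differed by more than sampling noise (median chi-square 1.39 to 5.28 times its expectation). Total counts were 15280166 to 28662608, and intervals rest on this spread and not on counting alone. Scripts were tested on simulated counts. Alternatives were DESeq2 1.42.0, its size factors, no filter, at least 10 counts in every library, run as a term, a replicate block, only the libraries compared and leaving out each library. With run as a term, the wild types of both runs shared 1 mean per treatment beside a shift for the run. Of 55487 gene IDs, 55227 had a symbol. Named pathway genes are up to 3 called genes per comparison with the largest change among those with a mean count of at least 50. The members and lists were chosen with earlier results of these data known. R 4.3.3, Python 3.11.15 and matplotlib 3.10.9 were used.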

Additional observations from a re-analysis of the deposited data

Results flagged for a closer look

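The difference in Dex response between groups passed the test for 2 of the 10 genes. Of all genes, 3.29% passed for GRD/D, 3.23% for GRD+L/D+L, 8.48% for GRko/ko, 1.85% for GRL/L and 7.09% between the wild types. The share of all genes that passed in any of these comparisons was not counted. The Wnt5a response of GRD/D minus that of GRwt/wt in run 1 was 0.31 on the log2 scale (adjusted p = 0.00691), with Wnt5a higher after Dex in 3 of 3 GRD/D libraries than in any vehicle library. The Wnt5a response of GRwt/wt in run 2 minus that in run 1 was -0.30 (adjusted p = 0.0084), with the set of cultures and the run not separable. The Dkk2 response minus that of GRwt/wt in run 1 was 0.43 in GRD+L/D+L (adjusted p = 0.00112) and 0.37 in GRko/ko (adjusted p = 0.00383), 2 comparisons that share the GRwt/wt libraries. Groups of 3 libraries were too small for a test of outlying libraries.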

How the results depend on the processing

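Of the 77 gene and comparison pairs among the 10 genes that were called, 64 kept the call in every fit that left out a library, 13 lost it in at least 1, and none changed sign. DESeq2 kept 73 of the 77, DESeq2 size factors 75, no filter all 77 and the replicate block 25 of 26. Pairs that were not called but passed under an alternative numbered 25, of which 9 passed without a filter. The fit without a filter was more liberal, with 110 genes called after Dex in GRko/ko (main 0). Its 77 kept calls therefore say little about how firm they are. Of the 88 pairs called under no setting, 47 changed sign in at least 1, so their directions are not settled. Among values printed above, leaving out a library moved Dex changes in GRwt/wt of run 1 from -0.057 to 0.34 (Sfrp2, below 0 without vehicle library 1) and from -0.79 to 0.10 (Wnt5b, above 0 without Dex library 1). With run as a term, which fits 1 Dex change to the wild types of both runs, Sfrp2 was -0.38 and Wnt5a -0.070. With a library left out, Dkk2 after Dex in GRD+L/D+L ran from -0.020 to 0.037 (-0.00081 with only the libraries compared). In GRko/ko Wnt5b ran from -0.34 to 0.0080, Sfrp1 from -0.096 to 0.39 and Sfrp2 from -0.19 to 0.27. In vehicle, Wnt4 in GRL/L ran from -0.10 to 0.086 and Axin2 in GRD/D from -0.40 to 0.13. Counts of called genes over the whole table moved by over 1.5 times as follows. After Dex in GRko/ko, DESeq2 called 1 and no filter 110 (main 0, and 0 to 6 when leaving out a library). With run as a term, the Dex change over the wild types of both runs called 5207 (main 2159 in run 1 and 4901 in run 2). Response differences from that shared change called 1105 (GRD/D, main 509), 1227 (GRD+L/D+L, main 501), 2310 (GRko/ko, main 1314) and 115 (GRL/L, main 286). With only the libraries compared, the Dex counts were 693 (GRD/D, main 1838) and 1507 (GRD+L/D+L, main 774), the GRD/D vehicle count 632 (main 1479) and the GRD+L/D+L response difference 885 (main 501). Without a filter, the pathway list had 14 calls after Dex in GRD+L/D+L (main 9) and 12 for the response difference of GRL/L (main 7). Leaving out a library gave 1129 to 2011 for Dex in GRD/D, 934 to 2208 for vehicle in GRD/D, 1170 to 1474 for vehicle in GRL/L (main 1757) and 190 to 333 for the GRL/L response difference. The causes were not tested. Deviations of same-numbered Dex and vehicle libraries correlated at -0.0787 to 0.116, with 1 of 18 over 0.1. Those of libraries with other numbers correlated at -0.0884 to 0.0836. These values show no pairing by replicate number but cannot exclude it, since paired cultures that differ little would give such values too. With the replicate block, Sfrp2 in GRL/L no longer passed (-0.31, adjusted p = 0.0589), and Axin2 after Dex in GRwt/wt of run 2 (0.34) and the Wnt4 response difference of GRko/ko (0.55) did. Dkk1, Wif1 and Wnt5b could not be fitted with at least 10 counts in every library, so their calls were not checked there, and that setting kept 64 of the 65 called pairs it could fit.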

Other observations

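Over the 36 libraries, each taken as its difference from the mean of its run, Wnt4 and Wnt5a moved together (Pearson r = 0.77), as did Sfrp2 and Axin2 (0.74) and Dkk3 and Axin2 (0.70). These are descriptions: libraries of a group share genotype, treatment and run. The genes with levels most like those of Wnt4 were Rab3c (r = 0.94), Kcne4 (0.93) and Frzb (0.93), those most like Wnt5a were Efnb2 (0.95), Arhgap42 (0.94) and Sept9 (0.94), those most like Dkk2 were Tenm4 (0.89), Lhx9 (0.85) and Fgf12 (0.84), and those most like Axin2 were BC005537 (0.95), Gfap (0.94) and Ctsc (0.94). The genes most like Sfrp1 were Maged2 (0.81), Oaf (0.78) and Il13ra1 (0.77). Sfrp2 was most like Col1a2 (0.86), Plxnd1 (0.83) and Col27a1 (0.83), and Dkk3 most like Gdpd5 (0.85), Fstl1 (0.85) and Kcnk6 (0.83).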
